A study of Saccharomyces cerevisiae with 68 samples.

Results

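Newly made RNA was set against total RNA from the same wild-type yeast cultures, gene by gene. The arrays are the 6 nascent ones titled WT replicates 3 to 8 and the 6 total ones with the same numbers, 12 of the 68 arrays of a series on SAGA, a coactivator complex of RNA polymerase II. The 4 other wild-type arrays, replicates 1 and 2, were left out because their columns hold means of later replicates, in full for total RNA and in part for nascent RNA. The wild type is FY406, a laboratory strain of Saccharomyces cerevisiae that carries no SAGA deletion. It was grown in YPD, a rich glucose medium, at 30 °C to an OD600 of 0.8. All cultures, those of total RNA included, received 5 mM 4-thiouracil for 6 min. Wild-type Schizosaccharomyces pombe cells, labelled in the same way at 31 °C, were mixed in at 1 cell for every 3 of S. cerevisiae before RNA was extracted. The nascent fraction was then purified from 200 µg of the total RNA through biotin on the thiol group, so the nascent and total arrays of one number form a pair. The deletion strains used below for comparison are spt3_gcn5, spt8, spt3, ubp8_gcn5, gcn5, ubp8 and spt20, which derive from FY406 and lack the subunits in their names.

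Yeast cells take up 4-thiouracil and build it into RNA as it is transcribed. After a short pulse the labelled pool holds recently made molecules, whereas total RNA holds the accumulated pool. A transcript that is degraded quickly is renewed quickly, so its share of the labelled pool is high for its share of the total pool, and a long-lived transcript has the opposite balance. The log2 difference of nascent and total RNA is therefore used as a proxy for turnover. In yeast growing on glucose, messages for ribosomal proteins and glycolytic enzymes are known as long-lived, and those for many transcription factors and cell cycle regulators as short-lived.

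Levels are given as log2 array signal minus the array's median over the S. cerevisiae probe sets, and a difference is nascent minus total on this scale. A difference of 0 means that a gene kept its place relative to the median gene, not that equal numbers of molecules were present. Of 5449 genes, 4017 were above the lowest 25% of signal in both fractions and were tested. Because the RNA comes from whole cultures, fewer cells holding a transcript and less of it in each cell cannot be told apart. The arrays carry no depth, and their number limits the precision. The cells read as mating type a on the arrays: MFA1, MFA2, STE2, STE6 and BAR1, the a-factor, receptor, exporter and protease genes, lay between 0.78 and 3.78 in all 12 arrays. The alpha-cell genes MF(ALPHA)1, MF(ALPHA)2, STE3 and SAG1 lay between −6.83 and −0.05, but ASG7, also an a-cell gene, was low at −1.41 to −0.58.

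The 6 pairs fell into 2 kinds. In pairs 7 and 8 the SD of the difference over the tested genes was 0.569 and 0.571, and 436 and 431 genes were lower by log2 1 or more in nascent RNA, with 3 and 7 higher by as much. In pairs 3, 4, 5 and 6 the SD was 0.147, 0.271, 0.261 and 0.238, with 0, 3, 11 and 0 genes lower and 1, 11, 2 and 3 genes higher by that size. Nascent and total profiles correlated across genes at Spearman rho of 0.917 and 0.920 in pairs 7 and 8, against 0.976 to 0.993 in pairs 3 to 6. The pairs of replicates 7 and 8 thus separated the fractions over many genes, and the other 4 pairs did so over few.

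**Figure D1:**
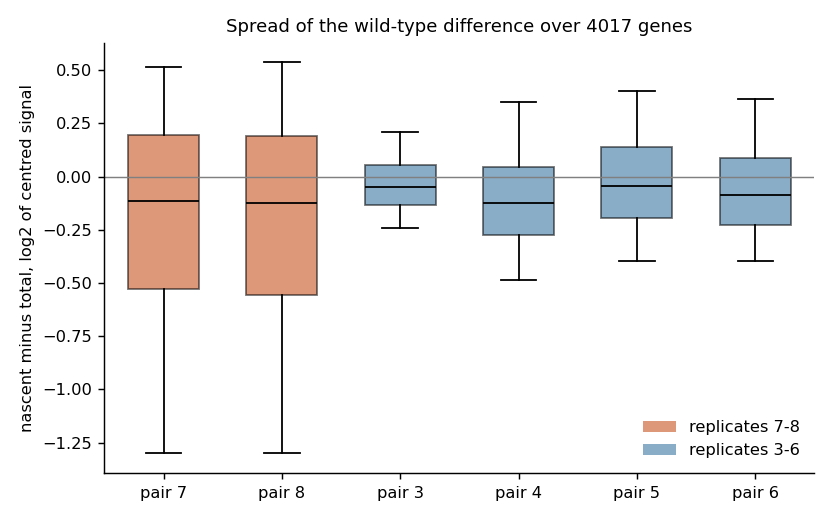
Nascent minus total difference (log2 of median-centred signal, y axis) over 4017 tested genes in each of the 6 wild-type pairs (x axis). Boxes span the middle 50% of genes, lines inside them mark the median, and whiskers run from the 5th to the 95th percentile. Pairs 7 and 8 spread widely and mainly downwards, whereas pairs 3 to 6 stay close to 0.

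Among replicates 3 to 6, each of the 4 nascent arrays lay nearer to the total array of its own number (SD of the difference 0.147 to 0.271) than to any other nascent array (0.267 to 0.463). Among replicates 7 and 8 this held for 0 of 2 arrays: nascent and total arrays of one number differed with an SD of 0.569 to 0.571, the 2 nascent arrays with 0.108 and the 2 total arrays with 0.135. The 7-8 and 3-6 sets also differed in level within a fraction, with SDs of 0.892 to 1.04 between nascent arrays and 0.796 to 0.941 between total arrays. In the limma fit, 57.2% of the tested genes differed between the sets in nascent RNA and 66.4% in total RNA. The labels do not say whether replicates 7 and 8 were cultured, labelled or hybridised apart from the others, and no such cause was tested. The upper end of the signal moved with the fraction: the 95th percentile lay 2.66 above the array median in nascent replicates 7-8, against 3.66 in their total arrays. In replicates 3-6 it was 3.46 in nascent RNA, against 3.67 in total RNA. What part this narrower upper range has in the differences was not tested.

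The S. pombe cells separated the same pairs. Over 1270 S. pombe genes the SD of the difference was 0.760 and 0.714 in pairs 7 and 8, against 0.155 to 0.339 in pairs 3 to 6. The S. cerevisiae median relative to the S. pombe median was higher in nascent than in total RNA by 1.83 and 1.75 in pairs 7 and 8. In pairs 3, 4, 5 and 6 that shift was 0.07, 0.14, −0.23 and 0.40. The mean over 6 pairs was 0.66 ± 0.90 (SD), which did not differ from 0 (two-sided exact sign-flip permutation test, p = 0.156, where 0.0312 is the smallest this design allows). The 2 shifts in 7-8 lay above all 4 in 3-6 (exact permutation p = 0.0667, the smallest possible for 2 against 4). Of the spike-in genes, those of 13 S. pombe ribosomal proteins had median differences of −1.91 and −1.53 in pairs 7 and 8, and all 13 were below 0 in both, as were 56.1% of all S. pombe genes. The same 13 genes had medians of −0.15, −0.17, −0.49 and 0.13 in pairs 3 to 6.

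All directions below are relative to the median S. cerevisiae gene. Set against the S. pombe median instead, every difference in pairs 7-8 was higher by about 1.82, and 3982 of the 4017 genes then lay above 0. That shift moved all genes alike and left their order as it was.

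Over all 6 pairs no gene passed the limma test at an adjusted p of 0.05. The number at an unadjusted p under 0.05 was 1262, and the smallest adjusted p was 0.0729. Another fit let the difference vary between the 7-8 and 3-6 sets and tested their equally weighted mean. There 2077 genes passed, 578 higher and 1499 lower in nascent RNA. That fit takes the difference between the sets out of the residual spread, so its number does not come from the weighting alone. Pairs 3-6 alone also gave 0 genes (1159 unadjusted, smallest adjusted p 0.0675). There, other settings gave between 0 and 500 genes, the most with a variance trend and robust shrinkage in limma, of which 453 were lower in nascent RNA. Pairs 7-8 alone gave 2885 genes, 71.8% of those tested. Of these, 1846 (46.0% of tested) were lower in nascent RNA and 1039 (25.9%) higher, with 431 lower and 2 higher by log2 1 or more. Quantile normalization, which gives every array the same distribution, turned this balance to 1202 lower and 1475 higher. The spread in that fit comes from 2 pairs, and in simulated data it recovered 43.3, 74.6 and 92.4% of changes of log2 0.5, 1 and 2.

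The direction of the falls was shared in part. Of the 431 genes lower by log2 1 or more in 7-8, 392 (91.0%) had a mean below 0 in pairs 3-6 and 282 (65.4%) were below 0 in all 4 of those pairs, against 65.6% and 29.5% of all tested genes. Only 5 of them were above 0 in all 4, against 8.22% of tested genes. Of the 208 genes higher by 0.5 or more in 7-8, 61.1% also lay below 0 in pairs 3-6, so the rises had no such counterpart. The median of the 431 genes in pairs 3-6 was −0.22. Over the brightest of 5 equal bins of total signal in 7-8 it was −0.21, so the shared falls were not separated from signal. Over all 6 pairs, 860 genes (21.4%) were below their total array every time and 152 (3.78%) above it. Without overlap between the 6 nascent and the 6 total arrays, 114 genes (2.84%) were lower and 4 (0.0996%) higher. Across genes, the differences of pairs 7 and 8 correlated at rho of 0.945, those among pairs 3 to 6 at 0.05 to 0.50, and those between the sets at −0.06 to 0.48. These correlations are across genes, which are not independent replicates, and the arrays of a set share whatever sets it apart.

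The lowest difference in 7-8 was that of the Ty element frame YAR009C (−3.05 ± 0.07), whose probe set may read many copies. Ribosomal protein, stress and vacuolar genes were among the steepest falls on probe sets of their own. RPL39, which encodes a protein of the large ribosomal subunit, had levels of −0.79 and −0.82 in nascent replicates 7 and 8, against 1.93 and 2.37 in total RNA. The difference of −2.96 ± 0.11 (SE, adjusted p = 7.59e-06) leaves 12.9% of the total-RNA level. In replicates 3 to 6 the levels were 3.54, 3.94, 3.76 and 3.52 in nascent RNA, against 3.74, 3.91, 3.55 and 3.66 in total RNA. The fractions of RPL39 overlap there, and both stand above every array of 7 and 8. HSP12, the gene of a small membrane-associated stress protein, had −0.33 and 0.10 in nascent replicates 7 and 8, against 2.69 and 2.79 in total RNA, a difference of −2.86 ± 0.09. Nascent replicates 3 to 6 had 1.65, 2.93, 1.62 and 2.91, against 1.58, 3.23, 1.73 and 3.20 in total RNA. Replicates 4 and 6 stood above 3 and 5 in both fractions of HSP12, whereas the fractions of each pair lay close together.

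CPS1, which encodes a vacuolar carboxypeptidase, had −1.75 and −1.86 in nascent replicates 7 and 8, against 0.95 and 1.10 in total RNA, a difference of −2.82 ± 0.08. In nascent replicates 3 to 6 it had 0.31, −0.28, −0.57 and 0.23, against 0.61, −0.19, 0.61 and 0.30 in total RNA. All 4 of those pairs were lower in nascent RNA, pair 5 by the most (−1.17), but the groups overlap. IDP1, the mitochondrial NADP-dependent isocitrate dehydrogenase, had 0.49 and 0.63 in nascent replicates 7 and 8, against 3.01 and 3.09 in total RNA, a difference of −2.49 ± 0.06. Nascent replicates 3 to 6 had 2.50, 2.00, 2.31 and 1.87, against 2.69, 2.38, 2.65 and 2.33 in total RNA. IDP1 was below its total array in all 6 pairs, with a mean of −0.34 ± 0.07 in pairs 3-6 (adjusted p = 0.0675).

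The other large falls in 7-8 were of HSP26, a small heat shock chaperone (−2.67), RPS23B (−2.54), the uncharacterised YCL021W-A (−2.39), RPL19B (−2.31), RPS10B (−2.30), RPS28A (−2.18), RPL26B (−2.17) and ADH2, the glucose-repressed alcohol dehydrogenase (−2.14). The SE was 0.06 to 0.09 for these 8 genes. Their mean differences in pairs 3-6 lay between −0.26 and −0.09, and none passed there. HSP26 had −2.14 and −2.07 in nascent replicates 7 and 8, against 0.60 and 0.53 in total RNA. ADH2 had −1.17 and −1.18 in the nascent arrays, against 1.00 and 0.93 in the total arrays. The total level of 7 and 8 lay within the range of total replicates 3 to 6 for HSP26 (−0.29 to 0.77) and above it for ADH2 (0.24 to 0.40). The nascent levels of both genes in 7 and 8 lay below every nascent array of replicates 3 to 6.

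**Figure D2:**
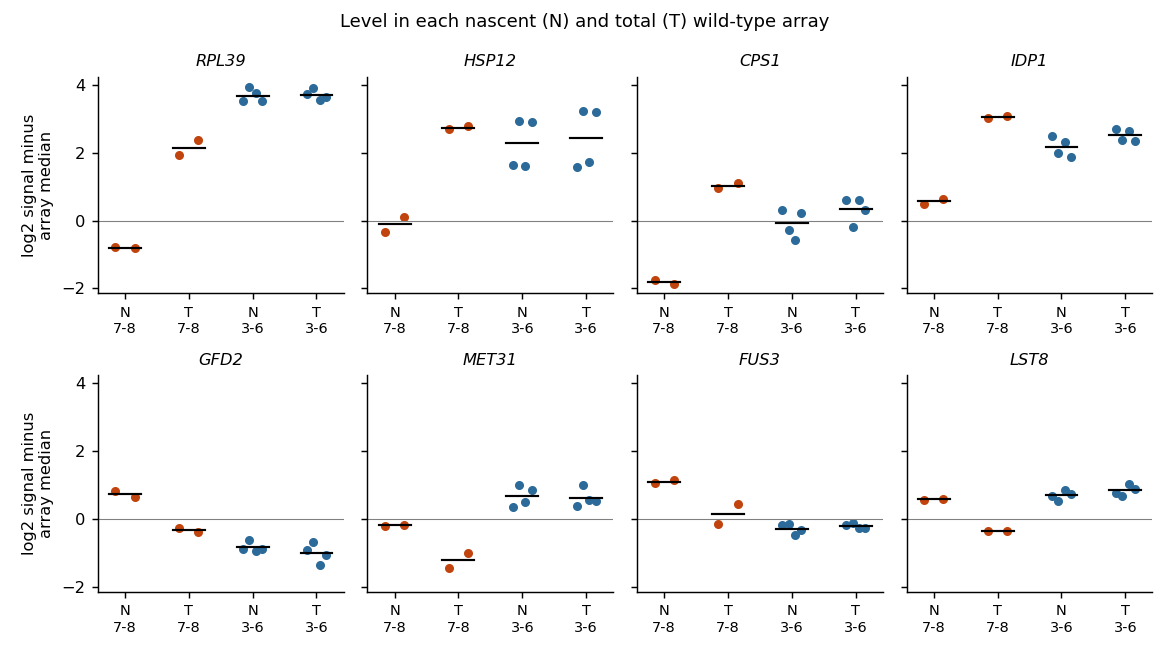
Level (log2 signal minus array median, y axis) of 8 genes in nascent (N) and total (T) wild-type arrays of replicates 7-8 and 3-6 (x axis); points are arrays and bars are means. RPL39, HSP12, CPS1 and IDP1 were lower in nascent RNA of 7-8, and GFD2, MET31, FUS3 and LST8 were higher. The mean difference was smaller in 3-6 for all 8, although CPS1 had −1.17 in pair 5 and IDP1 a mean of −0.34.

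Rises were smaller than falls. GFD2, a gene of unclear function, had 0.83 and 0.63 in nascent replicates 7 and 8, against −0.25 and −0.39 in total RNA, a difference of 1.05 ± 0.06 (adjusted p = 1.91e-05). MET31, a zinc-finger factor of the sulphur amino acid genes, had −0.20 and −0.18 in nascent replicates 7 and 8, against −1.44 and −0.99 in total RNA, a difference of 1.03 ± 0.10. These were the 2 genes that rose by log2 1 or more, and the arrays of the 2 fractions did not overlap. In nascent replicates 3 to 6 GFD2 had −0.90, −0.63, −0.94 and −0.89, against −0.93, −0.69, −1.36 and −1.05 in total RNA. MET31 had 0.34, 1.01, 0.51 and 0.84 in nascent replicates 3 to 6, against 0.38, 1.00, 0.56 and 0.52 in total RNA. GFD2 thus lay slightly above its total array in all 4 of those pairs, whereas MET31 lay above it by 0.32 in pair 6 and within 0.06 of it in the others.

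FUS3, the mitogen-activated kinase of mating, had 1.05 and 1.15 in nascent replicates 7 and 8, against −0.16 and 0.45 in total RNA, a difference of 0.96 ± 0.12. LST8, a subunit of both TOR kinase complexes, had 0.57 and 0.58, against −0.36 and −0.35 in total RNA, a difference of 0.93 ± 0.06. LST8 lay on the other side in replicates 3 to 6, with 0.67, 0.54, 0.86 and 0.72 in nascent RNA, against 0.76, 0.69, 1.04 and 0.88 in total RNA. The remaining large rises in 7-8 were of the uncharacterised YBR071W (0.98), PHO4, the factor of the phosphate genes (0.95), the Mediator subunit SRB5 (0.93), EFM3, a methyltransferase of elongation factor eEF2 (0.92), RCE1, a protease that matures prenylated proteins (0.90), HSP30, a plasma membrane stress protein (0.88), REI1, a cytoplasmic factor of the large ribosomal subunit (0.88), and MDH2, the cytosolic malate dehydrogenase (0.86). Their mean differences in pairs 3-6 ran from −0.18 to 0.38 and none passed.

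Of 41 gene lists drawn up by textbook function, 25 had a median difference below 0 in 7-8, and the medians ran from −1.41 to 0.31. In pairs 3-6 the same medians ran only from −0.28 to 0.06. The median over all tested genes was −0.11 in 7-8 and −0.06 in 3-6. In 7-8, 46.0% of all tested genes were lower and 25.9% higher, the shares beside which the list counts below stand. Those counts are of tested genes only, and the signal filter took more from some lists, leaving 5 of 11 hexose transporters and sensors. For most lists a value is also given below after quantile normalization, which raised the all-gene median by 0.16. A second value sets each gene against the median of tested genes in the same of 20 bins of total signal (taken from replicates 3-6), because the difference also fell with signal. Like signal below therefore means like signal in replicates 3-6, and total levels in 7-8 could differ. The median total level was 1.61 in 3-6 and 2.66 in 7-8 for TCA cycle genes. It was 0.33 and 1.79 for vacuolar proteases and hydrolases, and 3.68 and 2.03 for histones. What part this has in the second value was not tested.

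**Figure D3:**
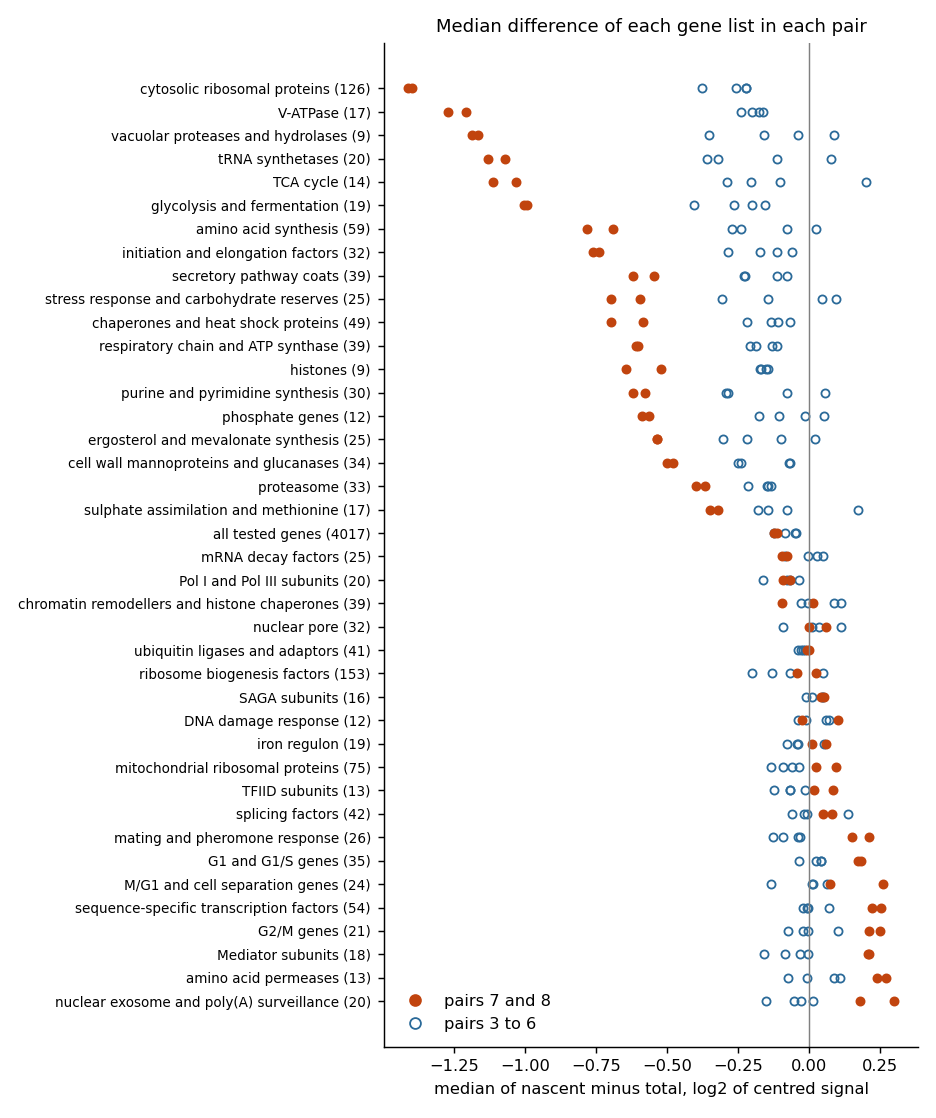
Median nascent minus total difference (log2 of centred signal, x axis) of gene lists with at least 9 tested genes (y axis, number tested in brackets), in pairs 7 and 8 (filled) and pairs 3 to 6 (open). Ribosomal protein, V-ATPase, vacuolar, tRNA synthetase and TCA cycle lists lie below −1 in pairs 7 and 8 and within about 0.4 of 0 in pairs 3 to 6, and all points are relative to the median gene of each array.

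Ribosomal proteins make up both subunits of the cytosolic ribosome, and in 7-8 all 126 tested genes of this list were lower in nascent RNA, against 46.0% of tested genes. Their median was −1.41 in 7-8 and their differences ran from −2.96 to −0.27. In pairs 3-6 the median was −0.27, and 117 of the 126 were below 0 in all 6 pairs, against 21.4% of tested genes. The difference between the sets itself passed the test, towards a deeper fall in 7-8, for 125 of them (30.9% of tested genes). RPL10 of the large subunit (−1.06 ± 0.06) and RPS31, which is made as a fusion with ubiquitin (−1.03 ± 0.06), show the shallower side of the list. After quantile normalization 88 of the 126 remained lower and 1 was higher, with a median of −0.46, and RPL10 stood at 0.02. Against genes of like signal the median was −0.25, with 89 below and 36 above, RPL10 at 0.12 and RPS31 at 0.15.

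The rest of the translation apparatus was uneven. All 20 aminoacyl-tRNA synthetases, the enzymes that charge tRNAs, were lower in 7-8 (median −1.11), among them the lysyl enzyme KRS1 (−1.09 ± 0.06). Their median was −0.15 after quantile normalization and −0.31 against like signal, with 18 of 20 below, and KRS1 stood at −0.02 after quantile normalization and did not pass. Of 32 initiation and elongation factors 30 were lower and 1 higher (median −0.74), with TEF4, an elongation factor eEF1B subunit, at −1.06 ± 0.06. Most of that fell away on the other scales, with a list median of −0.07 after quantile normalization and −0.08 against like signal, and TEF4 at 0.02 and 0.13. PAB1, the poly(A)-binding protein, fell to 1.97 and 1.99 in nascent replicates 7 and 8, against 3.44 and 3.50 in total RNA (−1.49 ± 0.06).

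Ribosome biogenesis factors, which process rRNA and assemble subunits, did not follow the ribosomal proteins. In 7-8, 51 of 153 were lower and 44 higher (33.3% and 28.8%, against 46.0% and 25.9% of all tested genes), with a median of 0.01. The median was 0.35 after quantile normalization and 0.30 against like signal, with 111 of 153 above. The snoRNP proteins NOP58 (−0.54 ± 0.06) and CBF5 (−0.41 ± 0.06) were lower relative to the median gene but stood at 0.35 and 0.43 after quantile normalization, and at 0.31 and 0.44 against like signal. Mitochondrial ribosomal proteins, encoded in the nucleus for the separate ribosome of that organelle, had a median of 0.06, with 24 of 75 higher and 15 lower. Their median was 0.19 after quantile normalization and 0.20 against like signal, with 59 of these 75 above.

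Vacuolar and acidification genes had medians below 0 on each of these 3 scales. The vacuole is the lysosome-like compartment of yeast, and the V-ATPase pumps protons into it. All 17 V-ATPase genes were lower in 7-8 (median −1.24), with −0.56 after quantile normalization and −0.39 against like signal. VMA3, the proteolipid ring subunit, had 2.43 and 2.45 in nascent replicates 7 and 8, against 3.98 and 4.05 in total RNA (−1.57 ± 0.06). VMA3 was also below its total array in all 4 other pairs, with 3.47, 3.50, 3.31 and 3.41 in nascent replicates 3 to 6, against 3.72, 3.98, 3.66 and 3.64 in total RNA (−0.33 ± 0.07, adjusted p = 0.0675). VMA6 differed by −1.27 ± 0.06 in 7-8. Of 9 vacuolar proteases and hydrolases, 8 were lower and 1 higher (median −1.18), with −0.82 and −0.88 on the other scales. Among them PEP4, the aspartyl protease that activates the others, differed by −1.59 ± 0.06, and the aminopeptidase APE3 by −1.69 ± 0.06. The stress and reserve-carbohydrate list, which holds HSP12, had 23 of 25 lower (median −0.64), with −0.41 and −0.60 on the other scales.

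In metabolism, all 14 TCA cycle genes were lower in 7-8 (median −1.07), with −0.46 after quantile normalization and −0.71 against like signal. FUM1, the fumarase, differed by −1.23 ± 0.06. All 19 genes of glycolysis and fermentation were lower too (median −0.995), yet this list stood at 0.01 and 0.03 on the other scales. TDH3, a glyceraldehyde-3-phosphate dehydrogenase, had 4.35 in both nascent replicates 7 and 8, against 5.31 and 5.26 in total RNA (−0.94 ± 0.06). In nascent replicates 3 to 6 TDH3 had 3.74, 3.85, 3.50 and 3.79, against 4.12, 4.35, 3.90 and 3.96 in total RNA, lower in all 4 pairs. After quantile normalization TDH3 stood at 0.07 and ADH1, the fermentative alcohol dehydrogenase (−0.89 ± 0.06), at 0.12. The TCA and glycolysis lists thus had similar medians relative to the median gene. They had different ones among genes of like total signal in replicates 3-6, a contrast that was not tested.

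Of 59 amino acid synthesis genes 47 were lower and 4 higher (median −0.75), with −0.28 and −0.50 on the other scales. SER3, the first enzyme of serine synthesis, was lower by 1.23 ± 0.06 in 7-8 and lower in all 4 other pairs, with nascent levels of 1.25, 0.93, 0.97 and 0.74, against 1.58, 1.44, 1.403 and 0.95 in total RNA. Ribonucleotide reductase makes deoxynucleotides, and its subunit genes RNR2 and RNR4 were lower by 1.59 ± 0.06 and 1.46 ± 0.06 in 7-8. Secretory pathway coats had 37 of 39 lower (median −0.64), with −0.19 and −0.23 on the other scales. The respiratory chain and ATP synthase had 33 of 39 lower (median −0.62), with −0.28 after quantile normalization and 0.00 against like signal. Ergosterol synthesis had 21 of 25 lower and 1 higher (median −0.52), where ERG11, the sterol demethylase, was at −0.61 ± 0.06 but at 0.30 after quantile normalization and 0.06 against like signal.

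For several lists the direction depended on the scale. Of 33 proteasome genes 27 were lower in 7-8 (median −0.40), whereas their medians were 0.17 after quantile normalization and 0.16 against like signal. Of 34 cell wall genes 21 were lower and 3 higher (median −0.48), against 0.12 and 0.08 on the other scales. Phosphate genes (10 of 12 lower, median −0.58), hexose transporters (3 of 5 lower, median −0.29), purine and pyrimidine synthesis (28 of 30 lower, median −0.60) and sulphate and methionine genes (12 of 17 lower, median −0.34) had medians of 0.17, 0.28, 0.06 and 0.03 after quantile normalization. Against like signal these 4 lists stayed below 0, at −0.26, −0.11, −0.28 and −0.18. Chaperones had 39 of 49 lower and 3 higher (median −0.63), with −0.10 after quantile normalization and −0.01 against like signal.

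Other lists had medians above 0 in 7-8, nuclear RNA surveillance, transcription factors and Mediator among them. The subunits of the RNA polymerases themselves did not, with medians of −0.13 for Pol II and −0.06 for Pol I and Pol III. Of 8 Pol II genes 2 were higher and 4 lower, near the 25.9% and 46.0% of all tested genes. Of 20 Pol I and Pol III genes 2 were higher and 8 lower. After quantile normalization these polymerase medians were 0.22 and 0.26, so their direction was tied to the scale. Of 20 genes of the nuclear exosome and poly(A) surveillance, which degrade nuclear RNA, 13 were higher and 2 lower (median 0.31), against 25.9% higher among tested genes. The median was 0.37 after quantile normalization and 0.31 against like signal. NRD1, which acts in termination of short non-coding transcripts, was at 0.43 ± 0.06 and RRP6, the nuclear exosome nuclease, at 0.16 ± 0.06. In pairs 3-6 the list had a median of −0.05, with 4 of 20 genes above their total arrays in all 4 pairs and 6 below, against 8.22% and 29.5% of tested genes. NRD1 and RRP6 were among those above, NRD1 with 0.22, 0.68, 0.16 and 0.09, against 0.10, 0.29, 0.12 and −0.18 in total RNA. The RRP6 call in 7-8 ended without the replicate block. Of 54 tested sequence-specific transcription factors (90 are on the array) 28 were higher and 5 lower (median 0.22, with 0.35 and 0.16 on the other scales). Examples are RPH1, a demethylase and repressor, at 0.64 ± 0.06 and BAS1, an activator of purine and histidine genes, at 0.41 ± 0.07. Their median in pairs 3-6 was 0.00, although RPH1 lay above its total array in every one of those pairs, by 0.21, 0.08, 0.23 and 0.17.

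Mediator connects transcription factors with RNA polymerase II, and of its 18 tested subunits 11 were higher and 1 lower in 7-8 (median 0.23, with 0.25 and 0.16 on the other scales). MED6 of the head module had −0.38 and −0.32 in nascent replicates 7 and 8, against −1.28 and −1.08 in total RNA (0.83 ± 0.06). In replicates 3 to 6 MED6 was lower in nascent RNA in all 4 pairs, with −0.72, −0.53, −0.83 and −0.59, against −0.52, −0.25, −0.51 and −0.38 in total RNA (−0.25 ± 0.06, adjusted p = 0.0675). The lower subunit was SRB2, at −1.001 ± 0.06, and SOH1 was at 0.69 ± 0.06. Of 13 amino acid permeases 10 were higher and 0 lower (median 0.27), with BAP2, which imports branched-chain amino acids, at 0.48 ± 0.06. The G2/M list had 12 of 21 higher and 4 lower (median 0.23), the M/G1 list 11 of 24 higher and 3 lower (0.18), and the G1/S list 16 of 35 higher and 7 lower (0.16). Among all tested genes 25.9% were higher and 46.0% lower. The mating list had 12 of 26 higher and 2 lower (median 0.12), among them STE5, the scaffold of the pheromone kinases, at 0.71 ± 0.08. These 5 lists had medians of 0.62, 0.33, 0.52, 0.33 and 0.43 after quantile normalization and of 0.30, 0.20, 0.21, 0.12 and 0.37 against like signal.

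Histone genes, whose transcripts are made in S phase, were lower relative to the median gene: 8 of 9 passed in 7-8, with a median of −0.61. The median was 0.02 after quantile normalization and 0.26 against like signal, so the direction was tied to the scale. HHT1, one of the H3 genes, had 0.97 and 0.95 in nascent replicates 7 and 8, against 2.07 and 2.00 in total RNA (−1.07 ± 0.06). In nascent replicates 3 to 6 HHT1 had 3.57, 3.81, 3.56 and 3.55, against 3.73, 3.86, 3.70 and 3.67 in total RNA. HTB1 was at −0.91 ± 0.06, HHF1 at −0.93 ± 0.06, HHT2 at −0.71 ± 0.10, HTA2 at −0.61 ± 0.06, HTB2 at −0.49 ± 0.06, HTA1 at −0.46 ± 0.06 and the linker histone HHO1 at −0.43 ± 0.06. After quantile normalization HTA1, HTA2, HTB1 and HHF1 turned to 0.37, 0.32, 0.11 and 0.02, and HHO1 stood at −0.13 and no longer passed. HTZ1, the variant H2A, differed by 0.04 ± 0.07 and did not pass. HTA2 and HHF1 are read by probe sets that may also bind their near-identical copies. HTB2 stood apart in replicates 3 to 6, where its mean difference was 0.37 ± 0.12, with 0.04, 0.29, 0.54 and −0.05 in nascent RNA, against −0.43, −0.21, −0.08 and 0.06 in total RNA. HTB1 had 3.93, 4.00, 3.79 and 3.83 in the same nascent arrays. The HTB2 signal was thus far lower, and whether it comes from HTB2 transcripts was not tested.

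SAGA genes lay on both sides of the median gene in the wild type. Of 16 tested subunits 5 were higher and 3 lower in 7-8, against 25.9% and 46.0% of tested genes, with a median of 0.01 and a range of −0.45 to 0.72. SGF11 of the deubiquitinase module was at 0.72 ± 0.06, SPT20 at 0.62 ± 0.07, SPT3 at −0.38 ± 0.06 and TRA1, the activator-binding subunit shared with NuA4, at −0.45 ± 0.06. Of the other genes deleted in the series, SPT7 differed by 0.00, UBP8 by 0.03, SPT8 by −0.03 and GCN5 by −0.10 in 7-8, each with an SE of 0.06, and none passed. GCN5 had −0.48 and −0.35 in nascent replicates 7 and 8, against −0.35 and −0.28 in total RNA. UBP8 was higher in nascent RNA in all 4 pairs of 3-6, with −0.77, −0.66, −0.78 and −1.02, against −0.93, −1.22, −0.94 and −1.13 in total RNA (0.24 ± 0.09, adjusted p = 0.123).

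The difference followed the signal of the probe set. In 5 equal bins of total signal in replicates 3-6, from low to high, the median difference in 7-8 was 0.14, 0.07, −0.04, −0.24 and −0.84, and 18.7, 26.8, 38.2, 57.0 and 89.1% of the genes were lower in nascent RNA. Binned by total signal in replicates 7-8, the median difference in pairs 3-6 was 0.02, 0.01, −0.04, −0.09 and −0.21. Across genes the Spearman rho was −0.555 for the first relation and −0.515 for the second, where signal and difference come from different arrays. Without the ribosomal protein genes the first was −0.514. Probe-set signal also depends on the probes, so it is not a measure of transcript number. Coding length had rho of 0.113 with the difference in 7-8 and 0.366 in 3-6. The shortest of 5 bins of coding length had a median of −0.32 in 7-8, and the other 4 lay between −0.10 and −0.02.

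**Figure D4:**
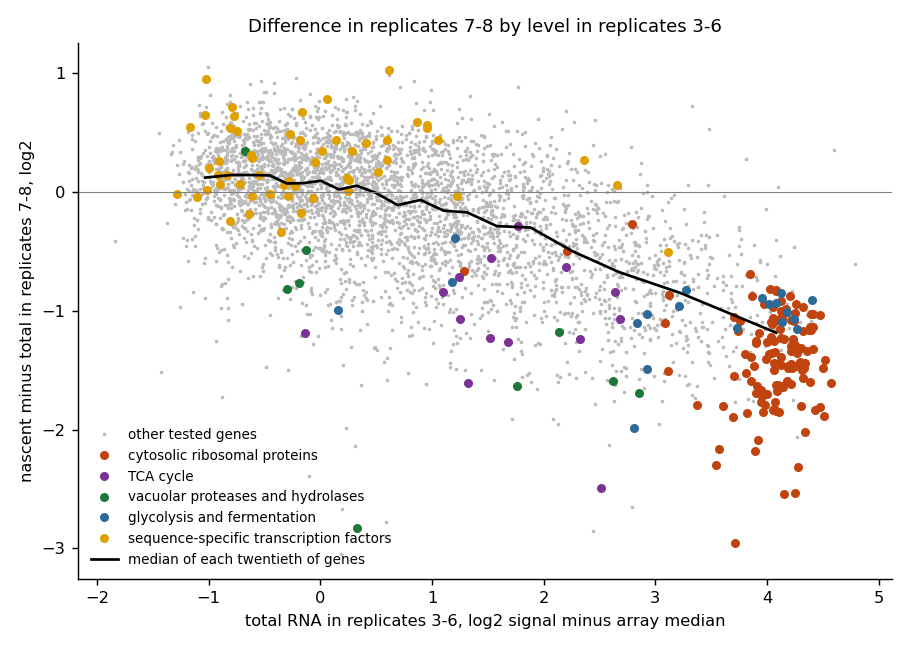
Nascent minus total difference in replicates 7-8 (log2, y axis) against total RNA signal in replicates 3-6 (log2 minus array median, x axis), one point per tested gene, with 5 gene lists coloured and the median of each of 20 equal bins as a line. Ribosomal protein genes cluster at high signal, glycolysis genes there lie about the line, and 13 of 14 TCA cycle and 8 of 9 vacuolar genes lie below the median of their bin.

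The 7-8 and 3-6 sets differed in the nascent minus total difference for 1852 genes (46.1% of tested), 612 (15.2%) towards a higher and 1240 (30.9%) towards a lower difference in 7-8. This split turned to 974 higher and 810 lower under quantile normalization, and was 3890 higher and 12 lower with each array set against its S. pombe median. Without replicate 7 the number was 1067 and without replicate 8 it was 986, and with no replicate block it was 869. The largest departures downwards were of RPL39 (−2.93 ± 0.16), HSP12 (−2.69 ± 0.14), HSP26 (−2.58 ± 0.12), CPS1 (−2.42 ± 0.28) and RPS23B (−2.29 ± 0.11) among genes with probe sets of their own. Upwards they were YBR071W (1.16 ± 0.14), SRB5 (1.10 ± 0.17), MED6 (1.08 ± 0.10), LST8 (1.07 ± 0.09) and PBP2, an RNA-binding protein (1.06 ± 0.22). PBP2 had 0.83 without replicate 7 and no longer passed. The Ty element frames YAR009C and YDR261C-D departed by −3.75 ± 0.37 and −2.78 ± 0.35, and the subtelomeric YBL112C by −2.67 ± 0.53, but their probe sets may read many repeated copies.

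Pairs of deletion strains were wide, narrow or between. In the spt3_gcn5, spt8, spt3, ubp8_gcn5, gcn5 and ubp8 arrays the deleted genes lay between −13.3 and −4.22 in all 48 values, against −1.22 to 0.47 in the wild-type arrays. In the 2 spt8 pairs the ribosomal protein median was −1.43 and −1.38, and the differences correlated with the wild-type 7-8 mean at Pearson r of 0.788 and 0.825 across genes. The 2 spt3_gcn5 pairs had medians of −1.18 and −1.02 with r of 0.846 and 0.816, and the 2 spt3 pairs −0.77 and −0.97. In gcn5, replicate 2 had −1.23 and r of 0.779, whereas the other 3 pairs had −0.27, −0.18 and −0.24. The 4 ubp8 pairs lay between −0.26 and −0.11. The 4 ubp8_gcn5 pairs had ribosomal protein medians between those of the wild-type sets, at −1.03, −0.85, −0.45 and −0.41, and r of 0.710, 0.616, 0.416 and 0.355. The S. pombe SD of these pairs was 0.425, above the 0.155 to 0.339 of wild-type pairs 3-6, and 0.251, 0.171 and 0.194, within it. Their nascent arrays had trimmed mean signals of 55.6 to 59.0, against 100.0 in the wild type, and what part this has was not tested. The 4 spt20 pairs had medians of −0.26, −0.06, 0.11 and −0.00, and r of 0.144, 0.001, 0.031 and −0.10. In spt20 pairs 1 and 3 the SD over genes was 0.546 and 0.552, as wide as wild-type 7-8 but with little likeness to it. The total arrays labelled spt20 replicates 1 and 3 held SPT20 at −0.10 and 0.02, within the wild-type range of −0.22 to 0.51, and their nascent arrays at −4.83 and −4.29. These 2 pairs thus go against their label in total RNA. RPL39 differed by −1.34 and −1.54 in spt8 and by −2.05 and −1.85 in spt3_gcn5, and IDP1 by −1.85 and −2.16 in spt8 and by −2.59 and −2.15 in spt3_gcn5. A downward spread like that of 7-8 was therefore seen in other strains too, and within gcn5 in 1 of 4 pairs.

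**Figure D5:**
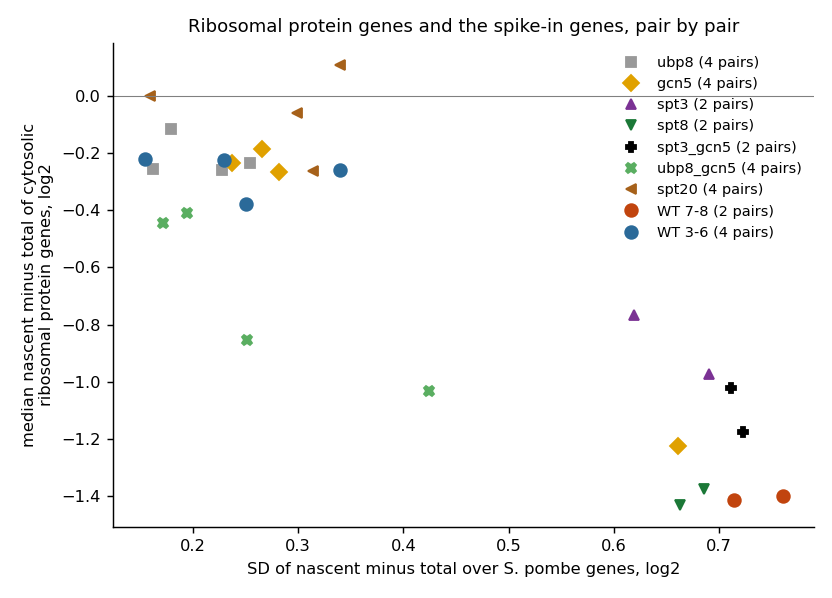
Median nascent minus total difference of the cytosolic ribosomal protein genes (log2, y axis) against the SD of the same difference over S. pombe genes (log2, x axis), one point per pair of arrays. The wild-type pairs 7-8, spt8, spt3_gcn5, spt3 and 1 gcn5 pair lie at SDs over 0.6 and medians below −0.7, and wild-type pairs 3-6, ubp8, spt20 and 3 gcn5 pairs lie at SDs under 0.4 and medians above −0.4. The ubp8_gcn5 pairs join neither group, with medians of −1.03 to −0.41 at SDs of 0.171 to 0.425.

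Against wild-type pairs 3-6 the limma interaction test found 0 genes with another nascent minus total difference in ubp8 (98 at an unadjusted p under 0.05) and 0 in gcn5 (603). Against wild-type pairs 7-8, spt3_gcn5 differed at 114 genes (2.84% of tested), 78 higher (1.94%) and 36 lower (0.896%). This comparison was added after seeing the data, whereas those of ubp8 and gcn5 were planned. With no low-signal filter the number was 0, with 1041 at an unadjusted p under 0.05. FAR1, the cyclin-dependent kinase inhibitor of the pheromone response, differed by −1.32 and −1.02 in spt3_gcn5, against 0.08 and 0.01 in wild-type pairs 7 and 8 (−1.21 ± 0.13, adjusted p = 0.0188). FUS3 (−1.11 ± 0.19) and HSP30 (−1.11 ± 0.19) were the next largest downwards. Both were among the largest rises of wild-type 7-8 (0.96 and 0.88), the arrays subtracted here. In the spt3_gcn5 pairs FUS3 had −0.30 and −0.02, and HSP30 had −0.51 and 0.05. Their means in wild-type pairs 3-6 were −0.07 and 0.07. The 3 largest upwards were the Ty frames YDR261C-D (2.54 ± 0.18), YAR009C (2.36 ± 0.12) and YBL100W-B (2.25 ± 0.24). YBL100W-B had −0.27 and 0.51 in the spt3_gcn5 pairs, against −2.13 in both of wild-type pairs 7 and 8. Wild-type pairs 3 to 6 had a mean of 0.03 ± 0.12 for the same frame, so the wild type held both values.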

How the data were processed

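Array intensity values on a linear scale were deposited for 10928 probe sets on 68 arrays, which the authors obtained from Expression Console (Affymetrix, version 1.4.1), as the submitters' processing notes record. No source used here names the summarising algorithm. The 2%-trimmed mean signal was 100.0 on each of the 12 wild-type arrays used, so they had been scaled as wholes. Replicates 1 and 2 were left out: for the 5498 S. cerevisiae probe sets the first total column is the average of replicates 3 and 4 and the second that of 5 and 6, and the nascent columns repeat this only in S. pombe. For S. cerevisiae the 2 nascent columns had median ratios of 2.24 and 2.00 to those averages. In each, 267 probe sets equalled them.

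Species and genes were taken from the platform's annotation, in which 7244 probe sets name 1 gene and 3683 none. Signals were put on a log2 scale and centred on each array's S. cerevisiae median. The brightest probe set was used for each gene. The lowest 25% of genes by mean signal in either fraction were left out. The models were fitted by lmFit and eBayes of limma (3.58.1, under R 4.3.3) with the replicate number as a block and Benjamini-Hochberg adjustment over 4017 genes. Single values per pair were compared by exact permutation tests. Summaries and figures were made in Python 3.11.15 (scipy 1.17.1, pandas 2.3.3, matplotlib 3.10.9, numpy 2.4.6).

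The labels state that labelled RNA was purified from the total RNA, which makes equal numbers a pair. In replicates 3 to 6 the deviations of a number's fractions from their group means correlated at 0.567 to 0.774, and 4 of 4 numbers correlated best with their own, against −0.628 to 0.333 between different numbers. In replicates 7 and 8 the correlation was 0.153. Nothing says that replicates came from separate cultures, so p-values may measure only technical spread.

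The wild-type arrays and the gene lists were chosen with earlier results of these data known. Genes are named by a fixed rule: the 12 largest differences each way among genes past the threshold whose arrays do not overlap and whose probe sets are not shared, up to 4 genes of each list, the 5 largest differences each way between the sets, the 3 largest each way between strains, and histone and deleted genes. As 0 genes qualified over 6 pairs, the first part was applied to replicates 7-8, where 2806 did. Alternatives were other centrings, quantile normalization, filters, an offset of 16, other probe set rules, no block, left-out replicates and comparison with genes of like signal. On simulated data with 4017 genes the fit of 6 pairs recovered 98.5% of changes of log2 0.5. Those changes were the same in all 6 pairs, with noise taken from the spread within each set. The measured difference varied between the sets at 1852 genes, so this share does not say what the 6-pair fit could find here. Sequence features were not analysed here.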

Additional observations from a re-analysis of the deposited data

Results flagged for a closer look

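The difference between nascent and total RNA was not the same in replicates 7-8 and 3-6. The interaction test in limma passed for 1852 genes. That is 46.1% of the tested genes. Of the 74 genes the text names 59 passed, but many of them were chosen for large differences in these same arrays. Their share is therefore no separate result. The departure of 7-8 from 3-6 was −2.93 for RPL39, −2.69 for HSP12, −2.58 for HSP26, −2.42 for CPS1, −2.29 for RPS23B, −2.21 for RPS10B, −2.16 for YCL021W-A, −2.15 for IDP1, −2.07 for RPL26B, −2.06 for RPS28A, −2.05 for RPL19B and −1.94 for ADH2. Between −1.5 and −0.9 lay APE3 (−1.44), RNR2 (−1.44), PEP4 (−1.36), PAB1 (−1.33), VMA3 (−1.25), RNR4 (−1.07), FUM1 (−1.07), VMA6 (−0.98) and HHT1 (−0.96). Smaller downward departures were those of SER3 (−0.86), HTB2 (−0.86), HHF1 (−0.86), KRS1 (−0.80), SRB2 (−0.76), HHT2 (−0.72), TEF4 (−0.71), RPL10 (−0.67), HTB1 (−0.65), RPS31 (−0.63), TDH3 (−0.58), ADH1 (−0.54), HTA2 (−0.42), TRA1 (−0.37) and HTA1 (−0.27). Upward departures were 1.16 for YBR071W, 1.10 for SRB5, 1.08 for MED6, 1.07 for LST8, 1.06 for PBP2 and 1.03 for FUS3. They were 0.97 for MET31, 0.96 for REI1, 0.90 for EFM3, 0.88 for GFD2, 0.82 for PHO4, 0.81 for HSP30, 0.72 for MDH2, 0.66 for each of SGF11, SPT20 and SOH1, 0.58 for STE5, 0.47 for RPH1 and 0.36 for BAP2. The repeated frames YAR009C, YDR261C-D, YBL112C and YBL100W-B departed by −3.75, −2.78, −2.67 and −2.16, on probe sets that may read several copies.

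Without replicate 8, 9 of the 59 no longer passed: HTB2 (−0.86), HHT2 (−0.53), HTA2 (−0.39), TRA1 (−0.34), HTA1 (−0.25), PHO4 (0.80), SGF11 (0.59), SPT20 (0.57) and BAP2 (0.33). Without replicate 7 these were 6: TRA1 (−0.40), HTA1 (−0.28), PHO4 (0.84), PBP2 (0.83), STE5 (0.44) and BAP2 (0.38). TRA1 and HTA1 also lost their call without replicate 3 (−0.30 and −0.26) or replicate 5 (−0.36 and −0.27), and HTA1 without replicate 6 (−0.27).

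The difference also varied between spt3_gcn5 and wild-type replicates 7-8, where the interaction test passed for 114 genes (2.84% of tested). That comparison was added after seeing the data. The departure of spt3_gcn5 was −1.21 for FAR1, −1.11 for FUS3 and −1.11 for HSP30, against 2.54 for YDR261C-D, 2.36 for YAR009C and 2.25 for YBL100W-B, the repeated Ty frames. For FUS3 and HSP30 the wild-type sets themselves differed, by 1.03 and 0.81 (7-8 minus 3-6).

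Groups of 4 or 6 values, 1 value per pair, were checked by Dixon's criterion. Most held the differences of a named gene, and the rest held summaries of whole pairs such as the SD. Of these 156 groups, 3 held a value far from the others, and chance alone gives about 1 in 20. They were MET31 in pair 6 (0.32, among pairs 3-6) and UBP8 in pair 4 (0.56, among pairs 3-6 and among all 6).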

How the results depend on the processing

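Over all 6 pairs 0 genes passed in the replicate block fit and 0 with no replicate block (420 at an unadjusted p under 0.05). No low-signal filter gave 1, leaving out a replicate 0 to 1, and replicates 7-8 alone 2885. Weighting the sets equally, with a term for their difference in the fit, gave 2077 (578 higher and 1499 lower in nascent RNA). In pairs 3-6, 0 genes became 1 with S. pombe centring, 500 with eBayes trend and robust settings (47 higher, 453 lower), 323 without the lowest 50% of genes (13 and 310), 21 with no filter (21 and 0) and 0 to 14 on leaving out a replicate, with 14 without replicate 5. In pairs 7-8 every setting gave 2109 to 3973 genes, 2804 with no replicate block. The split was 3953 higher and 20 lower with S. pombe centring, 531 and 1578 without the lowest 50%, and 1475 and 1202 under quantile normalization. Leaving out 7 or 8 leaves 1 pair and no test. For the difference between the sets, 1852 genes became 3902 with S. pombe centring (3890 and 12), 869 with no replicate block (162 and 707), and 974 higher with 810 lower under quantile normalization. On leaving out a replicate it ran from 986 to 1993. The gcn5 comparison gave 1 gene with no filter. The spt3_gcn5 comparison gave 0 with no filter and 182 with no replicate block. The mean S. pombe shift of 0.66 was 0.43 to 0.84 on leaving out a pair and 0.89 with the brightest 25% of S. pombe genes. Block removal ended the call of RRP6 in 7-8 and those of 11 of the 59 named genes that differed between the sets. The all-gene median of 7-8 was 1.71 with S. pombe centring and 0.05 under quantile normalization, against −0.11. With S. pombe centring all 25 list medians below 0 and 33 of 48 named genes below 0 turned above 0.

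Under quantile normalization the 7-8 medians of the Pol II (0.22), proteasome (0.17), hexose (0.28), phosphate (0.17) and cell wall (0.12) lists turned above 0. Other lists, nearer 0 on at least 1 scale, also turned. They were Pol I and Pol III (0.26), nuclear pore (0.14), purine and pyrimidine (0.06) and mRNA decay (0.04). The sulphate (0.03), histone (0.02), chromatin (0.02) and glycolysis (0.01) lists did so too. RPL10 (0.0155), TEF4 (0.0224), TDH3 (0.0686), ADH1 (0.12), NOP58 (0.35), CBF5 (0.43) and ERG11 (0.30) likewise turned above 0. So did HTA1 (0.37), HTB1 (0.11), HTA2 (0.32) and HHF1 (0.0218). The difference between the sets turned above 0 for RPS31 (0.18), RPL10 (0.20), KRS1 (0.0348), TEF4 (0.12), TDH3 (0.18), ADH1 (0.25), HTA1 (0.23), HTB1 (0.0674), HTA2 (0.20), NOP58 (0.55) and ERG11 (0.53). Against genes of like signal, an alternative chosen after seeing the data, RPS31 (0.15), RPL10 (0.12), TEF4 (0.13), TDH3 (0.25), ADH1 (0.29), HTA1 (0.72), HTB1 (0.27), HTA2 (0.58), HHT1 (0.11), HHT2 (0.14), HHF1 (0.26), NOP58 (0.31), CBF5 (0.44) and ERG11 (0.0639) lay above 0. The cause was not tested. T content, introns and promoter motifs were not run. The signals hold no background value, so what dim probe sets limit is not known.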
